A study of Mus musculus with 6 samples.

Results

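The FOS, JUN and EGR immediate early transcription factor genes were followed in mouse fibroblasts that carried a GGCT-expressing retroviral vector or the empty vector. The 10 genes were the 4 FOS genes Fos, Fosb, Fosl1 and Fosl2, the 3 JUN genes Jun, Junb and Jund, and the 3 EGR genes Egr1, Egr2 and Egr3. Their probes were found by the RefSeq transcript accession that the scanner files give for each probe, which yielded 16 of the 56570 probes on the array and 10 of its 23536 named genes. All probes of each gene were kept, and 14 of the 16 were among the 31110 probes tested. A further Fosb probe was well above background on none of the 6 arrays and a further Egr3 probe only on 1 control array.

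The cells were NIH3T3, an established line of mouse embryonic fibroblasts, grown in DMEM with 2% fetal bovine serum. Both groups were infected with the pCX4bsr retroviral vector, which carried GGCT in the GGCT cells and no insert in the control cells. GGCT, γ-glutamylcyclotransferase, is an enzyme of glutathione metabolism that cleaves γ-glutamyl dipeptides. Each of 3 experiments, numbered in the labels and described as independent, gave 1 control and 1 GGCT array of Cy3-labelled RNA. The labels do not say whether the cells were infected anew for each experiment, so the p-values measure only the spread between these samples. The GGCT cells were a stable population, and the sources used here do not say from which species the expressed GGCT sequence came.

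FOS and JUN proteins form AP-1, a family of basic leucine zipper dimers in which FOS proteins need a JUN partner while JUN proteins can also pair with themselves. EGR proteins are zinc finger factors that bind GC-rich sites. In fibroblasts, serum and growth factors switch on many of these genes within minutes through RAS and ERK signalling, with SRF and its TCF partners at the CArG boxes of their promoters, and the transcripts are short-lived.

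The promoters of the 5 genes that passed the test below are shown so that the letters before their starts can be read beside the differences. Each is the 250 bases before an annotated RefSeq start in the GRCm38.p6 build, written 5′ to 3′ on the gene's strand, with the matches to 5 searched motifs in capitals. The windows are Fos at chr12:85473640-85473889 on the plus strand, Fosb at chr7:19310046-19310295 on the minus strand, Fosl2 at chr5:32136222-32136471 on the plus strand, Jun at chr4:95052223-95052472 on the minus strand and Egr2 at chr10:67537619-67537868 on the plus strand.
Fos: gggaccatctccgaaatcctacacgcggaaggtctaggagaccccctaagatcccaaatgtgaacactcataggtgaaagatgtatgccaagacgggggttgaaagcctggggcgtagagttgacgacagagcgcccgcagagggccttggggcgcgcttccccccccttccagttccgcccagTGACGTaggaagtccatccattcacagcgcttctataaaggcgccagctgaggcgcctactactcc
Fosb: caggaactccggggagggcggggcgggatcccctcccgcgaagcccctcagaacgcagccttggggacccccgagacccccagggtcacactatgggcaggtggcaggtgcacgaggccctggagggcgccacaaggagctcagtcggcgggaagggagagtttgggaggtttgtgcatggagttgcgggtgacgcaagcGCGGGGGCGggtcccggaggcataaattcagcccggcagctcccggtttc
Fosl2: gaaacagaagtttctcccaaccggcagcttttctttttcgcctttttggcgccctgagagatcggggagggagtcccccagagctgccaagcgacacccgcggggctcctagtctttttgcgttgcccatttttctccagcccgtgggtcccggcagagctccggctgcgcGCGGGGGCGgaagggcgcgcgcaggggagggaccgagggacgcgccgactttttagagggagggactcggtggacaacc
Jun: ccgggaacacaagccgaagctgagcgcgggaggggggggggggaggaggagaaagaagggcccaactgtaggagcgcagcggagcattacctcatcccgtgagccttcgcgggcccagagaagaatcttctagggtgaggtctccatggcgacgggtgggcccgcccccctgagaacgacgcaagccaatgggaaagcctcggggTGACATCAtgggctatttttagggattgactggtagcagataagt
Egr2: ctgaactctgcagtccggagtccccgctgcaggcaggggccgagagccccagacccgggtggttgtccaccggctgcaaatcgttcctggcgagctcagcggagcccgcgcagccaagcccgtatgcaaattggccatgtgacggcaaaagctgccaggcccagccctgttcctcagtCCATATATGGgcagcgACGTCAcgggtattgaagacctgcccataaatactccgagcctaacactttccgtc

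The motifs, read on both strands, were the CArG box (bound by SRF), TGACNTCA and TGANTCA (bound by AP-1 and CREB/ATF dimers), GCGNGGGCG (bound by EGR proteins) and TGACGT (the core of a CREB site, which overlaps TGACNTCA where N is G). In the Fos window the capitals mark TGACGT at 66 to 61 bases before the start, and the window holds no CArG box. Bases farther from the start than the printed windows were not searched. A window without a CArG box therefore cannot show whether the gene, Fos included, has one farther upstream. The Fosb and Fosl2 windows each hold GCGGGGGCG, at 50 to 42 and 79 to 71 bases before the start, and the Jun window holds TGACATCA at 45 to 38 bases. The printed Egr2 window is 1 of 5 for its annotated starts and was chosen after the matches were seen. It holds the CArG box CCATATATGG at 72 to 63 bases and ACGTCA, the reverse complement of TGACGT, at 56 to 51 bases. The windows starting at 67537620 and 67537680 hold the same matches, the window starting at 67537316 holds another CArG box, CCTTTTTTGG, and no TGACGT, and the window starting at 67535249 holds no match. Over all 32851 windows of this length, 1.47% held a CArG box, 7.49% TGACNTCA, 6.75% TGANTCA, 4.70% GCGNGGGCG and 6.47% TGACGT. The windows of Junb and Jund held none of these letters. Fosl1, Egr1 and Egr3 are named without a window. A match is a description of the letters only.

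Over the 6 arrays, the 75th percentile of the signal was 380.0 to 471 units and 54.6% to 61.7% of probes were well above background, which with 3 arrays a group limits the precision. Every value below is log2 of the processed signal minus that percentile, so that 0 is the percentile itself, and a difference is GGCT minus control. Arrays are named by experiment, and the arrays of experiment 1 were on one slide and scan and those of experiments 2 and 3 on another. As a check of the labels, Ggct read -0.57, -0.72 and -0.66 on the control arrays and -0.14, 0.20 and -0.16 on the GGCT arrays, a difference of 0.62 (SE 0.12, limma adjusted p = 0.0107). Without both arrays of experiment 2 or of experiment 3 that call was lost (adjusted p = 0.0763 and 0.103), and whether the mouse Ggct probe reads the expressed sequence is unknown, so the check is limited. All 10 fibroblast markers were above background on every array, 1 of them higher and 4 lower with GGCT, with summed signals of 855300 to 929700 units in the control and 714400 to 789400 in the GGCT arrays. Of the markers of other cell types, the endothelial genes Kdr and Tek, the leukocyte genes Ptprc and Adgre1 and the epithelial genes Epcam and Cdh1 were above background on no array. Others were above background on all 6 arrays, namely the keratin genes Krt8 (higher by 1.18) and Krt14 (lower, -1.46), the leukocyte genes Cd68 (lower, -0.27) and Csf1r (385 to 1230 units, not called), the endothelial gene Pecam1 (higher by 0.43) and the neural and glial genes Gfap (higher by 0.53) and Tubb3 (not called), and the endothelial gene Cdh5 was above background on the 3 GGCT arrays alone. The summed signal of the 4 endothelial markers was 58.1 to 66.1 units in the control and 110 to 126 units in the GGCT arrays. Of these 4, Pecam1 was called higher (limma adjusted p = 0.0466). Cdh5 was also called, but it entered the test through the GGCT arrays alone. The part of any of these markers in the results below was not tested.

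The family did not move one way. Fosb, Fosl2 and Jun were higher with GGCT, Fos and Egr2 were lower, and Fosl1, Junb, Jund, Egr1 and Egr3 did not pass the test. By its brightest probe, 5 of the 10 genes passed, against 40.0% of the 14057 named genes tested the same way, of which 17.8% were higher and 22.2% lower. Change was therefore common across the array, and the members' share was near that background. The members' median difference was 0.15, beside -0.02 over all named genes. The control and GGCT arrays did not overlap for those same 5 genes, beside 56.0% of named genes. Counted by probe, 6 of the 14 tested passed, against 35.2% of all probes (17.7% higher and 17.5% lower). With the experiment as a block, Fosl1 also rose and Jund also fell, giving 4 higher and 3 lower of the 10, against 57.4% of named genes (26.5% higher and 30.9% lower). Because 3 arrays against 3 cannot give an exact permutation p below 0.1, calls rest on limma fitted across all 31110 probes, with Benjamini-Hochberg adjustment.

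**Figure D1:**
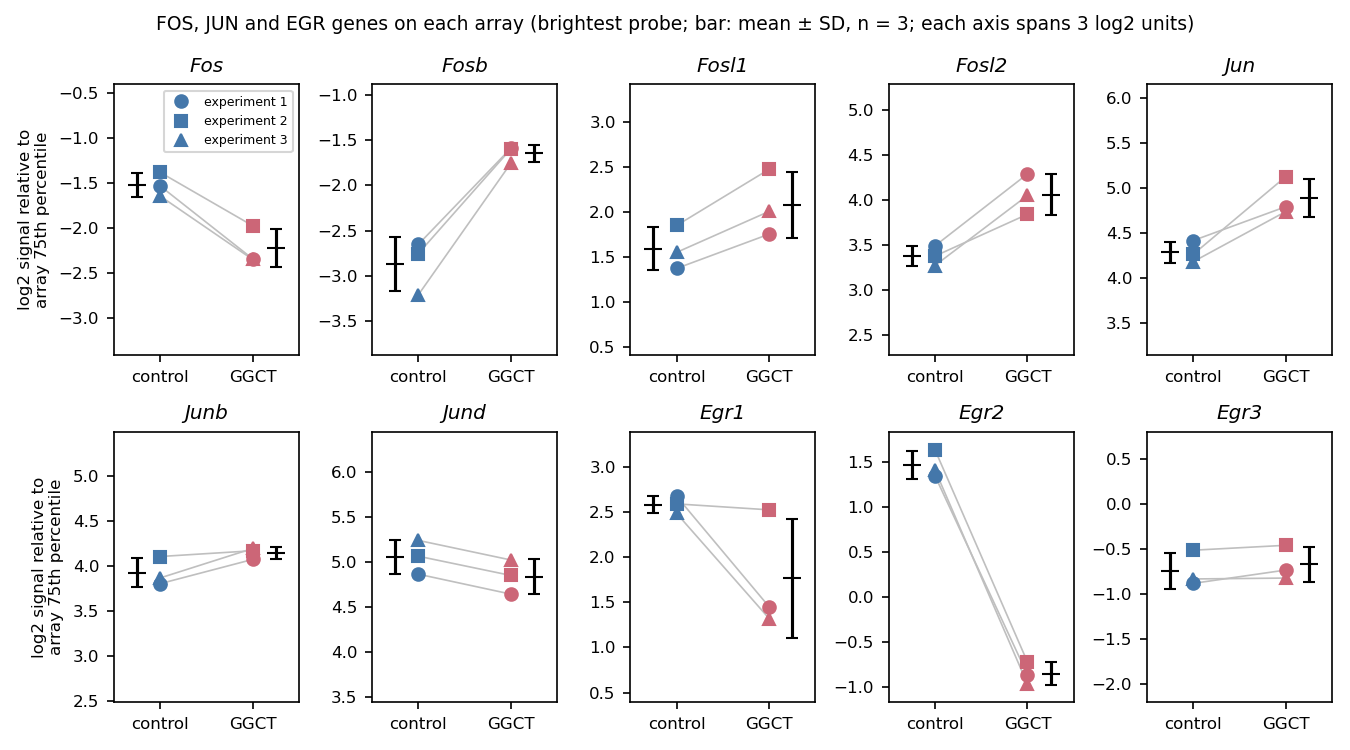
Each panel shows 1 gene by its brightest probe, with log2 signal relative to the array's 75th percentile on the vertical axis and the 3 control and 3 GGCT arrays on the horizontal axis; points are single arrays joined by experiment, and bars are the mean with its SD. Egr2 separates by over 2 log2 units in every experiment, while the GGCT array of experiment 2 lies among the control arrays for Egr1.

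**Figure D2:**
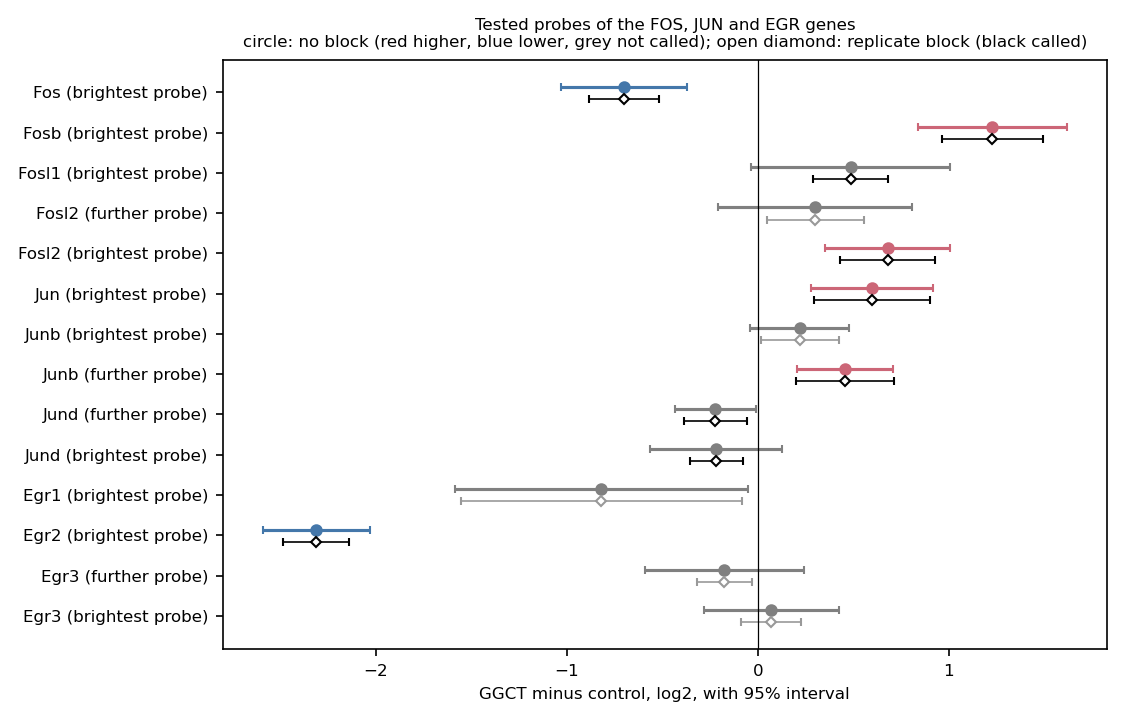
The GGCT minus control difference (log2) of each tested probe of the 10 genes is drawn with its 95% interval, as circles without a block (red higher, blue lower, grey not called) and as open diamonds with the experiment as a block (black called). Egr2 has the lowest value, -2.31, and Fosb the highest, 1.23, and both probes of Jund lie at -0.22.

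The FOS genes split. Fos encodes the founding AP-1 subunit, a strong activator whose transcript decays quickly. It read -1.53, -1.38 and -1.64 on the control arrays of experiments 1 to 3 and -2.34, -1.97 and -2.35 on the GGCT arrays. All GGCT arrays were below all control arrays, and the gene fell by 0.70 on the log2 scale (SE 0.14, 95% interval -1.03 to -0.37, limma adjusted p = 0.0102), a level 1.63-fold lower. The fall was -0.81, -0.59 and -0.70 within the 3 experiments, and it missed the threshold only without both arrays of experiment 3 (adjusted p = 0.103). The Fos signals were dim, at 131 to 163 units in the control and 80.5 to 117.5 units in the GGCT arrays. Under normexp background correction the difference was -0.51 and still passed (limma adjusted p = 0.00678).

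Fosb, whose product pairs with JUN proteins and whose spliced ΔFosB form is unusually stable, went the other way. Its values were -2.65, -2.75 and -3.21 in control cells and -1.59, -1.59 and -1.75 in GGCT cells. The groups did not overlap, and the gene rose by 1.23 (SE 0.16, 95% interval 0.84 to 1.62, limma adjusted p = 0.00246), or 2.34-fold, with 1.07, 1.16 and 1.46 in the single experiments. The signals were dim, 46.3 to 62.9 units against 136 to 153 units. Under normexp background correction the difference was 0.64, and averaged with the undetected probe it was 0.69, both still past the threshold.

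Fosl1 encodes FRA-1, which lacks the transactivation domain of FOS and is a known target of sustained ERK signalling. It read 1.37, 1.85 and 1.55 in the control and 1.75, 2.47 and 2.01 in the GGCT arrays. The groups overlapped because experiment 2 was high in both, and the difference of 0.49 (SE 0.21, 95% interval -0.03 to 1.01) did not pass (limma adjusted p = 0.130). Within each experiment the GGCT array was the higher, by 0.38, 0.62 and 0.45, and with the experiment as a block the gene passed (limma adjusted p = 0.00794, 95% interval 0.29 to 0.68).

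Fosl2 encodes FRA-2, the other FOS-related antigen. On its brightest probe the control arrays read 3.49, 3.38 and 3.27 and the GGCT arrays 4.29, 3.84 and 4.05. The groups did not overlap and the gene rose by 0.68 (SE 0.14, 95% interval 0.35 to 1.01, limma adjusted p = 0.0111), or 1.60-fold. Its further probe read -1.96, -1.19 and -1.50 against -1.44, -1.06 and -1.24, a difference of 0.30 (SE 0.21) that did not pass (adjusted p = 0.319). Without both arrays of experiment 2 or of experiment 3, the call on the brightest probe was lost (adjusted p = 0.0566 and 0.142).

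Among the JUN genes, Jun was higher, Junb differed between its probes and Jund did not pass without a block. Jun encodes the AP-1 subunit that JNK activates by phosphorylation, and its promoter is a known target of AP-1 itself. Its values were 4.42, 4.26 and 4.18 in control cells and 4.79, 5.12 and 4.74 in GGCT cells. No GGCT array was as low as any control array, and the gene rose by 0.60 (SE 0.13, 95% interval 0.28 to 0.92, limma adjusted p = 0.0160), or 1.51-fold. The rise was 0.38, 0.86 and 0.56 in the 3 experiments. The call was lost without the control array of experiment 2 (adjusted p = 0.0571) or of experiment 3 (0.0656), without both arrays of experiment 2 (0.109) or of experiment 3 (0.120), and with no filter on dim probes (0.0618).

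Junb encodes a weaker activator that can oppose JUN. Its brightest probe read 3.80, 4.11 and 3.87 in the control and 4.07, 4.17 and 4.19 in the GGCT arrays. These overlapped, and the difference of 0.22 (SE 0.11, 95% interval -0.04 to 0.48) did not pass (limma adjusted p = 0.163). Its further, dim probe read -2.79, -2.82 and -2.88 against -2.48, -2.44 and -2.20. On that probe the groups were apart, by 0.46 (SE 0.10, 95% interval 0.21 to 0.71, limma adjusted p = 0.0168). That call was lost under normexp (0.22, adjusted p = 0.0577), with no filter (0.0725), without the control array of experiment 2 (0.0566) or 3 (0.0715), without the GGCT array of experiment 3 (0.0503), and without both arrays of experiment 2 (0.116) or 3 (0.197).

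Jund encodes a subunit present in resting fibroblasts that is known to slow their growth. The brightest probe read 4.87, 5.06 and 5.24 in control cells and 4.64, 4.85 and 5.02 in GGCT cells, which overlapped because both groups differed between experiments. The difference of -0.22 (SE 0.14, 95% interval -0.56 to 0.13) did not pass without a block (limma adjusted p = 0.289). It was nearly the same in each experiment, -0.22, -0.21 and -0.22, and the blocked fit called it lower (limma adjusted p = 0.0261, 95% interval -0.35 to -0.08). The further probe, at 4.55, 4.64 and 4.64 against 4.34, 4.33 and 4.49, gave -0.22 (SE 0.09), with an adjusted p of 0.0961 without the block and 0.0391 with it; it also passed with the slide as a block (0.0357) and with a trended, robust variance (0.0485). The blocked call of the brightest probe was lost without experiment 1, 2 or 3 (adjusted p = 0.131, 0.0672 and 0.136).

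Of the EGR genes, Egr2 had the lowest difference among the 10 genes. Egr2 (also KROX20) is known for myelination by Schwann cells and for hindbrain patterning, and serum induces it in fibroblasts. It read 1.35, 1.63 and 1.41 on the control arrays and -0.86, -0.72 and -0.97 on the GGCT arrays. The corresponding processed signals were 965, 1317 and 1140 units against 224, 280 and 241 units. The groups were far apart, and Egr2 fell by 2.31 on the log2 scale (SE 0.12, 95% interval -2.59 to -2.03, limma adjusted p = 8.38e-05), a level 4.97-fold lower. Single experiments gave -2.21, -2.35 and -2.38. In all 25 alternatives the call held, with differences from -2.38 to -2.03 and adjusted p up to 0.0140.

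Egr1, the EGR factor most used as a readout of ERK signalling, varied among the GGCT arrays. Control arrays read 2.67, 2.59 and 2.49, and GGCT arrays 1.45, 2.52 and 1.32. The GGCT array of experiment 2 lay within the control range, and the other two lay over 1 log2 unit below it. The difference was -0.82 (SE 0.32, 95% interval -1.59 to -0.05) and did not pass (limma adjusted p = 0.0932, with the experiment as a block 0.0635). Without the GGCT array of experiment 2 it was -1.20 and passed (limma adjusted p = 0.00285). As that array lay in the control range, its removal had to widen the difference. Without any other single array the gene did not pass (limma adjusted p = 0.169 to 0.245). The GGCT array of experiment 2 was the highest GGCT array for Egr2, Jun, Fos and Fosl1 as well.

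Egr3 encodes a related factor known from muscle spindles and lymphocytes. Its brightest probe read -0.88, -0.51 and -0.83 in the control and -0.73, -0.46 and -0.82 in the GGCT arrays. These values overlapped almost fully, at a difference of 0.07 (SE 0.15, 95% interval -0.28 to 0.42, limma adjusted p = 0.748). The other tested probe, at -2.47, -2.24 and -2.69 against -2.67, -2.38 and -2.88, gave -0.17 (SE 0.17, adjusted p = 0.480). The sign of Egr3 differed between its probes and has no settled direction here.

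**Figure D3:**
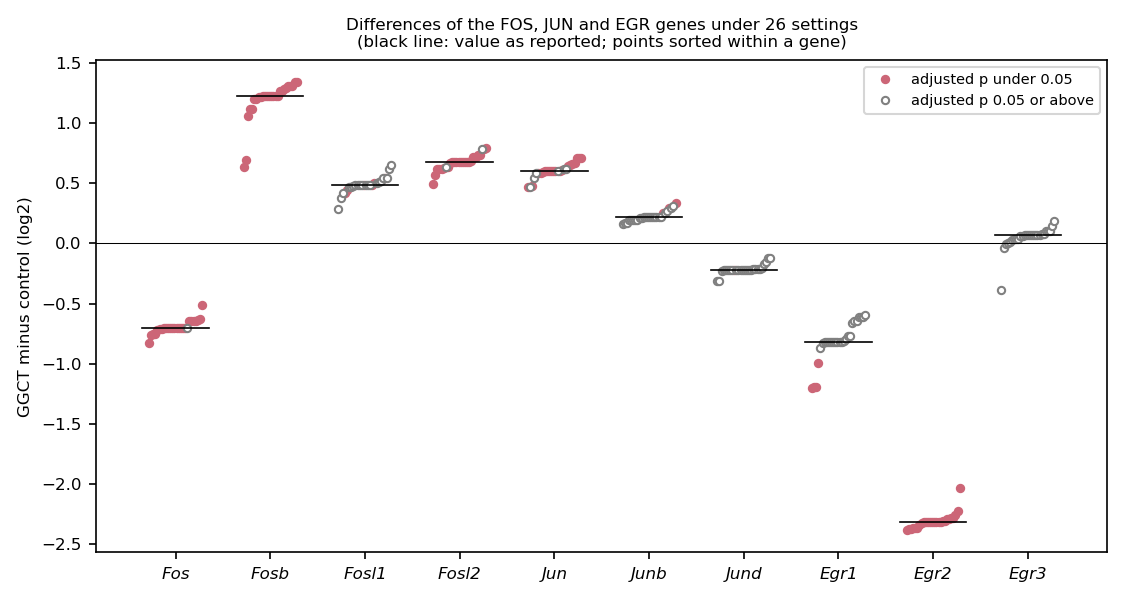
For each gene, the GGCT minus control difference (log2) by the brightest probe is plotted under the reported setting and the 25 alternatives, as filled red points where the limma adjusted p was under 0.05 and open points otherwise, with the reported value as a line. Egr2 and Fosb stayed past the threshold throughout, while Egr3 lay on both sides of 0.

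Samples with the same experiment number deviated together from their group means (correlations over probes of 0.716, 0.436 and 0.340), and the numbers are taken to pair the samples. Differently numbered samples of the second slide correlated at 0.320 and 0.282, near the value of the third pair, so the experiment and the slide are only partly separated. Among the 10 genes, the highest GGCT array was that of experiment 2 for 6, of experiment 1 for 2 and of experiment 3 for 2. For the control arrays these counts were 5, 4 and 1. Of 39 other immediate early genes tested, the GGCT array of experiment 2 was the highest for 23, that of experiment 1 for 12 and that of experiment 3 for 4. For their control arrays, experiment 1 was the highest for 21, experiment 2 for 11 and experiment 3 for 7. Such counts were not taken over all named genes, so they do not set these genes apart. Within the second slide alone, Fos differed by -0.65, Fosb by 1.31 and Egr2 by -2.37.

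The bZIP factors listed beside FOS and JUN, not all of them dimer partners of these, were mostly lower where they passed. Of 16 genes, 12 were tested, of which 1 was higher, 6 lower and 5 not called (58.3% called, median -0.23). Crem, a cAMP-responsive factor whose internal promoter gives the repressor ICER, read -1.31, -1.13 and -1.36 in the control and -0.02, 0.11 and -0.01 in the GGCT arrays. It was higher by 1.29 (SE 0.10, limma adjusted p = 0.00035); a further Crem probe was higher by 1.37 and 2 others, at -0.07 and 0.22, did not pass, and the mean of its probes differed by 0.70. Maf, a large MAF factor that binds its own bZIP sites, was at least 3.58-fold lower on the processed signal (limma adjusted p = 3.06e-05). It was not well above background on any GGCT array, and under normexp its log2 difference was -0.94, smaller than that bound. Such a bound sets the brighter group's mean against the lowest signal well above background on each array of the dimmer group, or the probe's own where that is higher. It applies to the processed signal alone and does not hold under normexp. Maf, and Arc and Rps6ka1 below, entered the test through the brighter group alone. The limma p printed beside each bound belongs to the measured difference and does not test the bound, and these genes are counted as called in their lists. Ddit3, the stress factor CHOP, fell by 1.48 (SE 0.16, adjusted p = 0.0013), and Atf7, a close relative of ATF2, fell by 0.81 (SE 0.08, adjusted p = 0.000891). Atf3, an inducible partner of JUN, differed by -0.16 (adjusted p = 0.555). Without any 1 of the 3 control arrays, or without the GGCT array of experiment 3, 3 of the 12 were lower. In those settings 3659 to 4505 probes of the whole array were lower, against 5431 with all arrays.

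Other immediate early genes went both ways as well. Of 40, all but Egr4 were tested, with 9 higher, 11 lower and 19 not called (51.3% called, median 0.02). Sgk1, a serum- and glucocorticoid-regulated kinase, was on the high side, at 4.81, 4.98 and 4.93 in the control and 6.12, 6.51 and 6.22 in the GGCT arrays. It rose by 1.38 (SE 0.12, limma adjusted p = 0.000652). Dusp2, a nuclear MAP kinase phosphatase, rose by 0.93 (SE 0.12, adjusted p = 0.00254; 0.46 under normexp), and Phlda1 by 0.74 (SE 0.10, adjusted p = 0.00278). Both missed the threshold without both arrays of experiment 2 (adjusted p = 0.057 and 0.0573), and Phlda1 also without those of experiment 3 (0.0679).

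Genes on the low side included Ccn2, the matricellular protein CTGF, at 4.29, 4.19 and 4.24 in the control and 2.39, 2.89 and 2.20 in the GGCT arrays. Ccn2 fell by 1.74 (SE 0.18, limma adjusted p = 0.00112), and as with Egr1 its GGCT array of experiment 2 was the highest of the 3. Dusp1, a phosphatase that inactivates ERK, JNK and p38, fell by 0.75 (SE 0.11, adjusted p = 0.00332), but not past the threshold without both arrays of experiment 3 (0.0829). Arc, a synaptic protein gene that serum also induces, was at least 3.74-fold lower on the processed signal (limma adjusted p = 0.000879). It was well above background on no GGCT array, and under normexp its log2 difference was -0.93, smaller than that bound. Nr4a1, the nuclear receptor NUR77, did not pass at 0.25 (adjusted p = 0.325), nor did Myc at -0.39 (0.0753). With the experiment as a block, Myc passed (limma adjusted p = 0.0272) and Nr4a1 did not (0.1475). The blocked fit called 10 genes of the list higher and 14 lower, against 57.4% of named genes called. Without both arrays of experiment 2 the list had 2 genes higher and 6 lower, and without those of experiment 3 it had 2 higher and 2 lower. At an unadjusted limma p under 0.05 these counts were 7 and 14, and 9 and 10. Calls also fell over the whole array, from 5511 probes higher and 5431 lower to 1705 and 2146 without experiment 2. Without experiment 3 they were 1003 and 1518.

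Among the kinases that carry the serum signal, Rps6ka5 was higher and the gene for ERK1 lower. Of 28 RAS, ERK and JNK pathway genes, all tested, 6 were higher, 2 lower and 20 not called (28.6% called, median 0.10). Rps6ka5, the kinase MSK1 that phosphorylates histone H3 at induced promoters, rose by 0.46 (SE 0.10, limma adjusted p = 0.0127). Rps6ka1, the kinase RSK1, was at least 3.09-fold higher on the processed signal (limma adjusted p = 0.0128). Its probe stayed below the detection level on all control arrays, and under normexp its log2 difference was 0.49, smaller than that bound. Mapk3, which encodes ERK1, fell by 0.73 (SE 0.08, adjusted p = 0.00134), and Araf, a RAF kinase, by 0.44 (SE 0.09, adjusted p = 0.0104). A further Araf probe fell by 1.10 (SE 0.10, limma adjusted p = 0.000655), with an adjusted p of at most 0.033 in the alternatives that tested it. The losses below are those of each gene's brightest probe. Without both arrays of experiment 3, Rps6ka5 (adjusted p = 0.147), Rps6ka1 (0.0546), Mapk3 (0.0536) and Araf (0.158) all missed the threshold, and without those of experiment 2 all of these but Mapk3 did (0.101 to 0.105). By limma, the list then had 0 genes higher and 0 lower without experiment 3, and 0 higher and 1 lower without experiment 2, against 4 higher and 2 lower at an unadjusted p under 0.05 in either case. Rps6ka5 was also lost under normexp (0.23, adjusted p = 0.0666), with no filter on dim probes (0.0606) and without the control array of experiment 2 (0.0503) or 3 (0.0599), and Araf without the control array of experiment 3 (0.0537) and with no filter (0.0560). Without the control array of experiment 2 or of experiment 3 the list had 2 genes higher, without the GGCT array of experiment 2 it had 3, and with the block it had 8 higher and 6 lower.

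Of the 16 genes for SRF, TCF and other factors that switch on immediate early promoters, 4 were higher, 3 lower and 9 not called (43.8% called, median -0.06). Srf itself differed by -0.12 (limma adjusted p = 0.498) and the TCF gene Elk1 by -0.13 (0.569). Ets2, an ETS factor activated by ERK, fell by 1.01 (SE 0.08, adjusted p = 0.000402), and Fhl2, a LIM-only protein that binds SRF and AP-1, fell by 1.17 (SE 0.13, adjusted p = 0.00134). Crebbp, the coactivator CBP, fell by 0.37 (SE 0.11, adjusted p = 0.0434), while its further tested probe, at -0.15 with overlapping groups, did not pass (limma adjusted p = 0.292). Ets1 rose by 0.60 (SE 0.13, adjusted p = 0.0145), and the CREB coactivators Crtc3 and Crtc2 by 0.44 (SE 0.10, adjusted p = 0.0161) and 0.30 (SE 0.08, adjusted p = 0.0249). Without the control or the GGCT array of experiment 3, none of Ets1, Crtc3, Crtc2 and Crebbp passed (adjusted p from 0.0545 to 0.128). Without the control array of experiment 2, Crtc3 (adjusted p = 0.0566), Crtc2 (0.0866) and Crebbp (0.124) were lost; Crebbp was also lost without the GGCT array of experiment 1 (0.0978) or 2 (0.103) and under quantile normalization (0.0845), and Crtc2 without any 1 array. By limma, the list had 0 genes higher and 2 lower without both arrays of experiment 2 or of experiment 3, against 2 and 1 higher at an unadjusted p under 0.05.

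Of the brakes and modifiers of AP-1 and EGR proteins, those called differed by under 1 log2 unit. Of 13 genes, 12 had a named probe, and 3 were higher, 1 lower and 8 not called (33.3% called, median 0.08). Fbxw7, a ubiquitin ligase subunit that marks JUN for degradation, rose by 0.54 (SE 0.12, limma adjusted p = 0.0183). Cops5, the COP9 subunit JAB1 that binds JUN, fell by 0.28 (SE 0.08, adjusted p = 0.0357). Further Cops5 probes, at -0.262 (limma adjusted p = 0.0912) and -0.255 (0.0723), did not pass. Nab2, the corepressor of EGR proteins, differed by 0.03 (adjusted p = 0.865). Fbxw7 was lost without the control array of experiment 2 (adjusted p = 0.0679) or 3 (0.0739) or the GGCT array of experiment 3 (0.0524), and Cops5 without any 1 array (0.0629 to 0.145). By limma, 0 genes of the list passed without both arrays of experiment 2 or of experiment 3, against 1 higher and 0 lower at an unadjusted p under 0.05 in either case.

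Genes linked to AP-1 control in fibroblasts went both ways, with more of the called genes lower than higher. Of 30, 25 were tested, with 5 higher, 10 lower and 10 not called (60.0% called, median -0.20). Il11, a cytokine of the IL-6 family, rose by 1.45 (SE 0.09, limma adjusted p = 0.000155), Plau, the urokinase protease, by 0.75 (SE 0.10, adjusted p = 0.00269), and Hmga1, an architectural chromatin protein, by 0.61 (SE 0.10, adjusted p = 0.00585). Those falling were Timp1, an inhibitor of matrix proteases, by 1.65 (SE 0.11, adjusted p = 0.000205), Spp1, the matrix protein osteopontin, by 1.60 (SE 0.11, adjusted p = 0.00023), and Mmp14, a membrane-bound matrix protease, by 1.45 (SE 0.09, adjusted p = 0.000195). Without both arrays of experiment 3 the list had 1 gene higher and 6 lower, and Plau (limma adjusted p = 0.0701) and Hmga1 (0.0658) were lost. Without those of experiment 2 it had 2 higher and 10 lower, with Hmga1 lost (0.0828). At an unadjusted limma p under 0.05 the list had 5 higher and 10 lower without experiment 3, and 4 and 12 without experiment 2. Without the control array of experiment 3 it had 3 higher. On chromosome X, the 50 tested genes nearest to Timp1 (25 on each side in RefSeq order) had a median difference of -0.66, with 34 lower and 1 higher, and the 50 nearest to Araf had the same median, with 33 lower and 1 higher. The part of this stretch in the falls of Timp1 and Araf was not tested. The lists are described by their counts beside the 40.0% of all named genes, and none is singled out by a test.

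**Figure D4:**
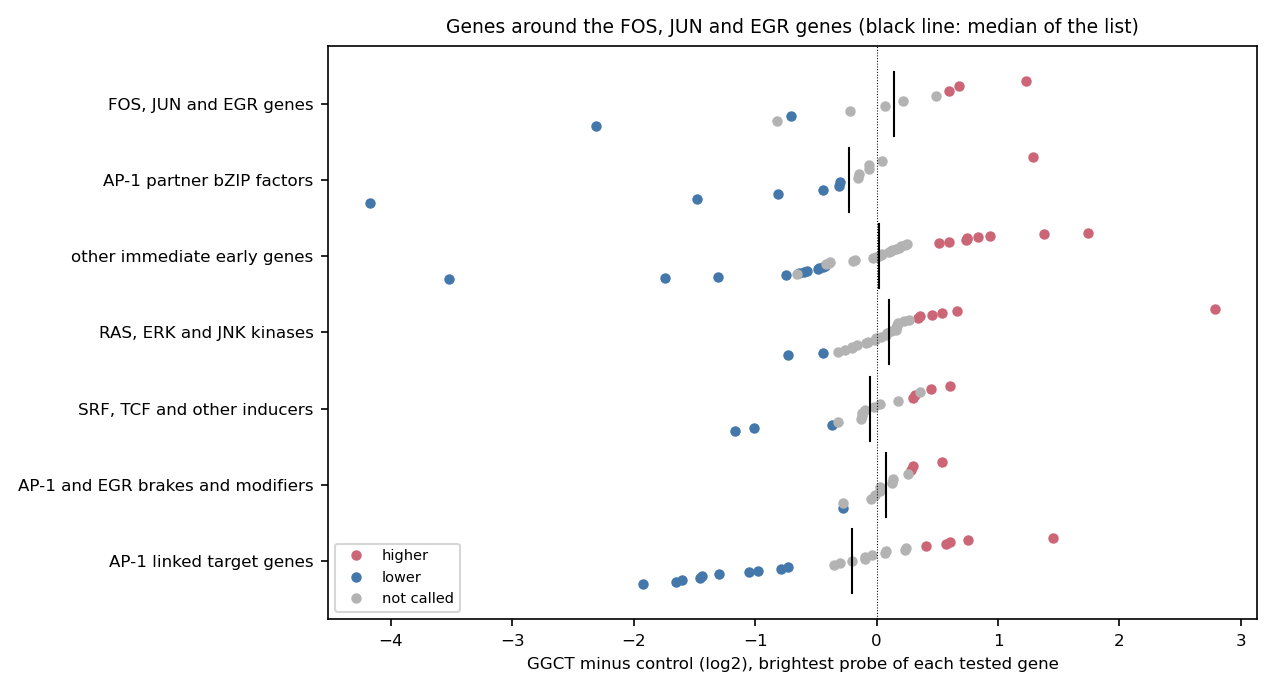
Each point is the GGCT minus control difference (log2, brightest probe) of 1 gene in the 10 FOS, JUN and EGR genes and the 6 lists around them, coloured red where called higher, blue where called lower and grey where not called, with the list median as a line. Medians run from -0.23 for the list of bZIP factors to 0.15 for the 10 genes, and each list holds called genes on both sides of 0. Maf, Arc and Rps6ka1 are drawn at their measured differences although 1 group was below background.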

How the data were processed

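Total RNA of 6 NIH3T3 samples (3 control, 3 GGCT) was hybridised to 1-colour Agilent arrays. Each deposited scanner file gives an intensity per spot, namely the processed signal that, per the file headers, version 12.1.0.3 of Agilent Feature Extraction wrote after its own background correction. The authors' deposited series table holds log2 values that equal log2 of that intensity minus 1 constant per array (correlation 1.0), with column medians of -3.88 to -3.70.

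From the scanner files, control spots and outlier-flagged spots were left out (578 flagged spots over 6 arrays), spots of a probe were averaged, and each array's 75th percentile was subtracted on the log2 scale. Probes that the scanner software marked well above background throughout the 3 arrays of a group, either one (31110 of 56570), were fitted with limma 3.58.1 in R 4.3.3, without a block, with Benjamini-Hochberg adjustment at 0.05. The script was checked on simulated data. Probes were named by unversioned accession through RefSeq (GRCm38.p6), which named 34504, and a gene was counted by its brightest probe, the one with the highest mean over 6 arrays. Exact permutation tests are two-sided.

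The experiment number was tried as a block and is treated as pairing the samples, because same-numbered samples deviated together (every correlation over 0.1), although samples sharing only the slide did so too; this comes from the data and the titles. Named genes were all members and, from each list, up to 3 called genes per direction with the smallest p, of which some are not reported here; Atf3, Nr4a1, Myc, Srf, Elk1 and Nab2 were added outside that rule after their values were seen. The members and lists were chosen with earlier results of these data known. Other settings were run 25 times, of which 3 were chosen after seeing the data; their effect is given in the closing section.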

Additional observations from a re-analysis of the deposited data

How the results depend on the processing

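Of the 10 genes, Fosb and Egr2 kept direction and call under all 25 alternatives, of which the 3 that leave out an experiment and block the rest were chosen after seeing the data. With the replicate block, the fit that uses the pairing, Fosl1 (0.49) and Jund (-0.22) passed and no other member's call changed. The probes higher and lower numbered 8521 and 8160 with that block, against 5511 and 5431 without it, 8598 and 8163 with the slide as a block, 8578 higher with array weights, and 3052 and 3409 with no filter on dim probes. Array weights called 5 members higher and gave Fosl1 0.45, Junb 0.25 and Egr1 -0.99, all past the threshold. The slide block called Fosl1 (0.49), the mean of probes called Junb (0.34), and no filter lost Jun (0.60). Egr3 changed sign, at -0.39 for the mean of probes, -0.0040 with array weights and -0.0355 without the GGCT array of experiment 2, never past the threshold. That mean of probes includes the Egr3 probe that was well above background only on 1 control array.

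Leaving out arrays gave 1 to 5 members higher, 1 to 3 lower, and 1003 to 6650 probes higher and 1518 to 6463 lower (6089 and 6043 without experiment 1). Blocked fits without experiment 1, 2 or 3 called Fosl1 each time (0.54, 0.42 and 0.50), that without experiment 2 called Junb (0.30) and Egr1 (-1.20), and that without experiment 3 lost Jun (0.62); none of the 3 called Jund, -0.22 in each (adjusted p = 0.131, 0.0672 and 0.136). Differences then ran from -0.82 to -0.63 for Fos, 0.29 to 0.65 for Fosl1, 0.57 to 0.79 for Fosl2, 0.47 to 0.71 for Jun, 0.16 to 0.31 for Junb, -0.31 to -0.12 for Jund, -1.20 to -0.60 for Egr1 and -0.0355 to 0.19 for Egr3. The second slide alone is the same fit as leaving out experiment 1. The number of arrays limits these values, as does dim signal for Fos and Fosb. Signal was also dim for the further Junb probe and for Maf, Arc, Rps6ka1 and Dusp2. The cause of each change was not tested.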

Other observations

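For Egr2, the called member with the smallest p, the named genes with the highest Pearson correlation over the 6 arrays were Mrpl32 (0.99984), Phf7 (0.9998) and Acsbg1 (0.99947). Their GGCT minus control differences were -0.57, -0.88 and -1.17, against -2.31 for Egr2. Of 14047 genes compared, 1737 correlated above 0.95, over the same 6 libraries in 2 groups.

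Genes near each member on its chromosome, the 25 tested on each side in RefSeq order, gave a local comparison. Around Egr2 their median difference was 0.18, with 14 of 50 higher and 4 lower, and 0 of the 50 had a lower value than Egr2. Around Egr1 the median was 0.20, with 0 of the 50 lower than Egr1. Around Fos it was 0.11, and 3 of the 50 had a lower value than Fos. Around Fosb it was 0.32, with 21 of 50 higher and 4 lower by limma, and Fosb exceeded 48 of them. Around Fosl1 it was 0.26, with 20 higher and 3 lower. Junb and Jund, both on chromosome 8, had neighbours at a median of -0.19 and -0.26, with 18 and 17 of 50 lower. Jund exceeded 27 of its 50 neighbours and Junb 42 of its 50.

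Of the 30 other immediate early genes with a promoter window, 2 held a CArG box, 5 TGACNTCA, 3 TGANTCA, 8 GCGNGGGCG and 11 TGACGT in at least 1 of their windows, beside 1.62%, 8.55%, 7.82%, 5.33% and 7.29% of all genes with a window. Of the 12 listed bZIP factors with a window, 0 held a CArG box, 1 TGACNTCA, 1 TGANTCA, 5 GCGNGGGCG and 5 TGACGT.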
